A study of Artemisia annua with 12 samples.

Results

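A set of 91 genes of Artemisia annua was far above its starting level after 2 h of UV-B and remained there at 4 and 6 h. The members were chosen by the deposited expression values themselves, over all 12 libraries. With L standing for the mean of log2(value + 1) over the 3 libraries of a harvest, L at 0 h had to be at least 1, L at 2, 4 and 6 h had to exceed L at 0 h by at least 2.5 each, and L at 4 h had to lie within 1 of L at 2 h. The 91 genes are 0.144% of the 63226 listed gene identifiers, and 0.352% of the 25841 genes listed at 1 or higher in 3 or more libraries, which are the genes tested below. All 91 passed that filter. The rises over 0 h and the near-level course between 2 and 4 h are therefore how the genes were chosen, and they are given below as values, without a test.

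The plants were wild-type seedlings, 6 weeks old, of 'Huhao 1', a cultivar selected for high artemisinin content. Artemisinin is the antimalarial compound extracted from this species. Seedlings grown with 16 h of light and 8 h of dark were placed under additional narrowband UV-B lamps (1.5 μmol per square metre per second), and the youngest fully expanded leaves were taken at 0 h (UV0), 2 h (UV2), 4 h (UV4) and 6 h (UV6). Each harvest has 3 libraries, and each library holds leaves pooled from 3 seedlings. All harvests share the cultivar, the genotype and the growth regime, and the labels give no seedlings held without UV-B to 2, 4 or 6 h. Duration under the lamps and time of day cannot be told apart here.

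Plants perceive UV-B with the photoreceptor UVR8, which acts on the ubiquitin ligase COP1 and so on the transcription factor HY5. In Arabidopsis this route raises transcripts of flavonoid synthesis, of photoprotective chloroplast proteins and of enzymes that repair DNA damage made by light, and stronger UV-B also sets off wound-like and oxidative stress responses. Transcripts raised early and held are one of several courses known from such time series, beside transient ones. The table gives identifiers without gene names, so which of these functions the 91 genes serve is not known here, and leaf or trichome markers could not be looked up to check the tissue. Identifiers are printed for 4 genes. The other members are referred to by their rank in level or in difference.

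Values have no stated unit. Library totals lay between 851404 and 868133, so the values look scaled to library size. Whether they are also divided by gene length, as TPM and FPKM are, is not known. Levels, ranks and shares of different genes are compared below with that limit. Read depth is unknown. Of all tested genes, the median log2 difference from 0 h was 0.13 in UV2, 0.21 in UV4 and 0.20 in UV6, and the rises below contain that shift. Replicate 1 of the 2 h harvest departed most from the other libraries of its harvest, with a median log2 deviation of 0.05 over all tested genes, where the other 11 libraries lay between -0.02 and 0.02. Over the 91 members its median deviation was 0.05 as well, with 55 members above and 36 below.

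Most members were weakly expressed before UV-B. At 0 h their mean values had a median of 4.08, with a lowest of 1.06 and a highest of 355.8. The median member stood at 59.6 at 2 h, at 73.3 at 4 h and at 73.3 at 6 h. L at 0 h lay from 1 to under 2 in 40 members, from 2 to under 3 in 23, from 3 to under 4 in 13 and at 4 or more in 15. In the ratio of mean values, without a pseudocount, the median member was 12.5-fold above 0 h at 2 h, 16.7-fold at 4 h and 16.2-fold at 6 h. At 6 h, 73 members were at least 10-fold, 6 at least 50-fold and 2 at least 100-fold above 0 h. In every one of the 91 members all 9 exposed libraries lay above all 3 libraries at 0 h, which held for 26.4% of all tested genes. As the rule used this contrast, nothing follows from that count.

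**Figure D1:**
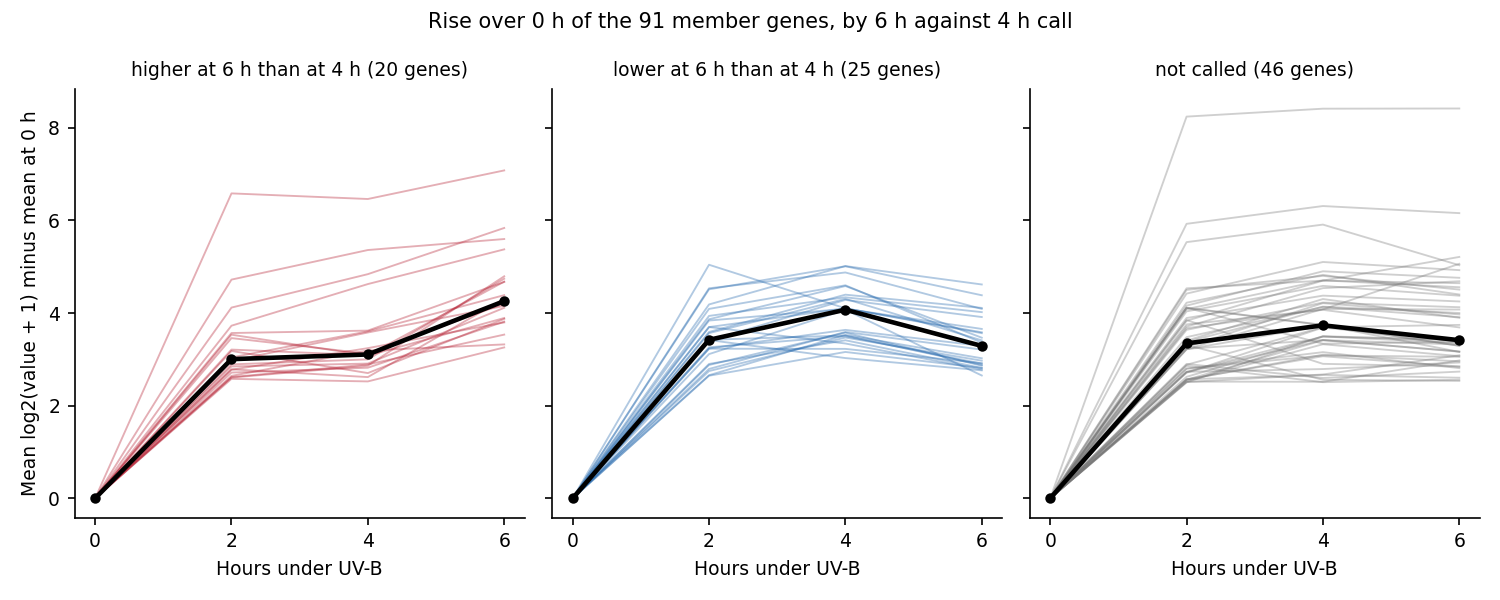
Rise over 0 h of each of the 91 members (y axis, mean log2(value + 1) minus the mean at 0 h) against hours under UV-B (x axis), split by the test of 6 h against 4 h; thin lines are genes and the black line with points is the median of the panel. The median rise of the 20 genes called higher went through 3.01, 3.11 and 4.26 at 2, 4 and 6 h, that of the 25 called lower through 3.42, 4.07 and 3.29, and that of the 46 without a call through 3.34, 3.74 and 3.41.

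The limits of the rule fall within a continuous range of genes. The member with the lowest L at 0 h had 1.01, and the nearest gene left out for that reason had 0.99. The smallest rise among the members was 2.503, and the nearest gene outside had 2.491. The largest absolute difference between 4 and 2 h was 0.999 inside and 1.006 outside. Within 0.1 of these limits lay 6, 12 and 6 members on the inside, and 8, 9 and 4 genes on the outside. With a pseudocount of 5 in place of 1 and the limits kept as they were, 49 genes met the rule, 43 of them among the 91. L at 0 h is then above 1 in any gene, so the starting limit left none out.

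The member with the highest level, CTI12_AA260020, supplied a large part of the summed signal. Its values were 201.43, 199.85 and 211.94 at 0 h, 11297.10, 13051.89 and 13227.37 at 2 h, 16596.22, 16059.62 and 16264.15 at 4 h, and 14445.67, 14690.66 and 14859.70 at 6 h. In the ratio of mean values it stood 61.3-fold above 0 h at 2 h, 79.8-fold at 4 h and 71.7-fold at 6 h. By value it ranked between 448 and 475 among all genes in the libraries at 0 h, and at rank 3 in every exposed library. The libraries at 6 h all lay below those at 4 h, and at 2 h replicate 1 was the lowest.

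Between 6 h and 4 h the log2 difference of CTI12_AA260020 was -0.15 ± 0.05 (SE), which did not pass the test (limma adjusted p = 0.0875). Without replicate 1 of the 2 h harvest it passed (limma adjusted p = 0.0017), since the fit shares one estimate of spread over all harvests. Over the alternatives run, its limma adjusted p ranged from 0.0016 to 0.237.

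The next members by level started from different points. The second by mean value was the one with the highest starting level, at 350.84, 354.44 and 362.14 at 0 h, and it had the smaller rise, to 2103.02, 2252.41 and 2338.69 at 2 h, 3299.89, 3233.78 and 3253.04 at 4 h and 3585.92, 3608.93 and 3516.94 at 6 h, which is 10.04-fold above 0 h at 6 h. The third by mean value began lower, at 65.96, 64.48 and 65.98, and stood at 1854.92, 1710.27 and 1700.86 at 2 h, 2676.36, 2766.61 and 2752.34 at 4 h and 3144.45, 3289.44 and 3228.06 at 6 h, 49.2-fold above 0 h. Their order of level at 0 h was kept at 6 h, although the values had drawn close to each other.

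The largest mean rise over the 3 exposed harvests was that of CTI12_AA522570, with a mean log2 rise of 8.36. Before UV-B it was listed at 1.64, 3.49 and 4.08, at 1034.14, 1210.16 and 1331.21 at 2 h, at 1394.05, 1313.21 and 1300.27 at 4 h and at 1359.68, 1313.64 and 1344.06 at 6 h. Its libraries at 4 and 6 h overlapped, and the log2 difference between 6 h and 4 h was 0.00 ± 0.20 (SE; limma adjusted p = 1.0). The size of its rise depends on the low values at 0 h: without replicate 1 of that harvest the mean log2 rise was 8.07, with a pseudocount of 5 it was 7.33, and with one of 0.1 it was 8.76.

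The second largest mean rise, 6.71, belonged to a gene that was the seventh by mean value. It was listed at 3.81, 4.13 and 4.18 at 0 h, at 512.33, 476.14 and 459.99 at 2 h, at 436.18, 445.07 and 449.05 at 4 h and at 687.69, 679.20 and 674.93 at 6 h. Its libraries at 6 h lay above all others, and it was 1.53-fold higher at 6 h than at 4 h in mean value (log2 difference 0.62 ± 0.04 SE, limma adjusted p = 5.0e-06). A mean rise of 5 or more was reached by 5 members, of 4 or more by 25 and of 3 or more by 77.

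Together the members held a small share of the library totals before UV-B and several percent afterwards. The share was 0.163% ± 0.003 in the UV0 libraries, 3.13% ± 0.13 in UV2, 4.04% ± 0.04 in UV4 and 4.04% ± 0.03 in UV6 (SD, n = 3 each). CTI12_AA260020 made up 14.5% of the members' sum in UV0, 46.8% in UV2, 47.0% in UV4 and 42.4% in UV6. The other 90 members held 1.65% to 1.68% of the total in the libraries at 2 h, 2.13% to 2.15% at 4 h and 2.32% to 2.34% at 6 h. Their sum was thus higher at 6 h than at 4 h in every library while CTI12_AA260020 was lower. Such a sum follows its highest genes. Counted by gene, the log2 difference between 6 h and 4 h was below 0 in 60 of the 91 members and above 0 in 31. Among the 1000 highest values of a library were 3 members in each UV0 library, 24 in UV2, 31 to 33 in UV4 and 34 to 36 in UV6. Among the 100 highest there were 0 at 0 h and 4 or 5 in each exposed library. In leaf tissue, more RNA per cell and more cells that express a gene cannot be told apart.

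**Figure D2:**
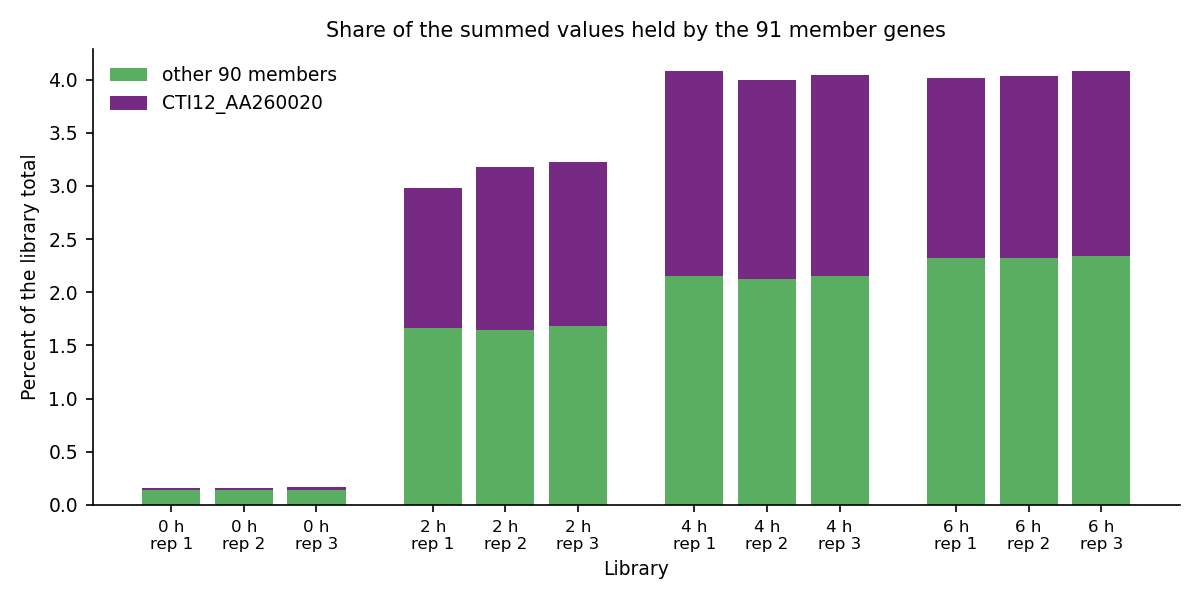
Share of the library total (y axis, percent) held by CTI12_AA260020 (purple) and by the other 90 members (green) in each of the 12 libraries (x axis, hours and replicate). The members together held 0.160% to 0.167% in UV0, 2.98% to 3.22% in UV2, 4.00% to 4.08% in UV4 and 4.02% to 4.08% in UV6.

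Within the bounds of the rule the course from 2 h onward varied. The mean level was highest at 2 h in 11 members, at 4 h in 52 and at 6 h in 28. The log2 difference between 4 h and 2 h, which the rule held under 1, was above 0 in 72 members and below 0 in 19, with a median of 0.47. The log2 difference between 6 h and 2 h had a median of 0.42 and ranged from -1.48 to 2.19. It was at least 1 in 13 members and at most -1 in 2. In the median member the value at 2 h was 73.8% of that at 6 h, with quartiles of 60.2% and 106.7%.

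The rule set no direct limit on the difference between 6 h and 4 h, but the values at 4 h and 6 h each entered it through a lower bound. A fall after 4 h was thus limited by the height of the rise at 4 h, while a further rise was not. The median rise at 4 h was 4.07 in the members called lower and 3.11 in those called higher. The calls in both directions, and the courses split by them, are therefore not independent of the rule. Of the 91 members, 20 were higher at 6 h than at 4 h and 25 were lower, and 46 did not pass the test (limma, Benjamini-Hochberg adjusted p under 0.05 over all 25841 genes). That is 22.0% and 27.5% of the members. Of all tested genes, 4.44% were called higher, 5.47% lower and 9.91% in either direction. A fit of the 6 h and 4 h libraries alone called 24 members higher and 38 lower, where it called 4.33% and 5.57% of the 23853 genes it tested. The members had higher values at 4 h than most tested genes, and among the 2248 tested genes within the members' quartiles of level at 4 h the shares were 7.87% higher and 16.5% lower. Members above and below those quartiles have no match there, while the members' shares are over all 91. The median log2 difference was -0.14 over the members and -0.02 over all tested genes. With 3 libraries a harvest, the libraries of 6 h and 4 h did not overlap in 72 members, 27 higher and 45 lower, or 29.7% and 49.5%. The same held for 12.7% and 16.5% of all tested genes, which were not matched for level.

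**Figure D3:**
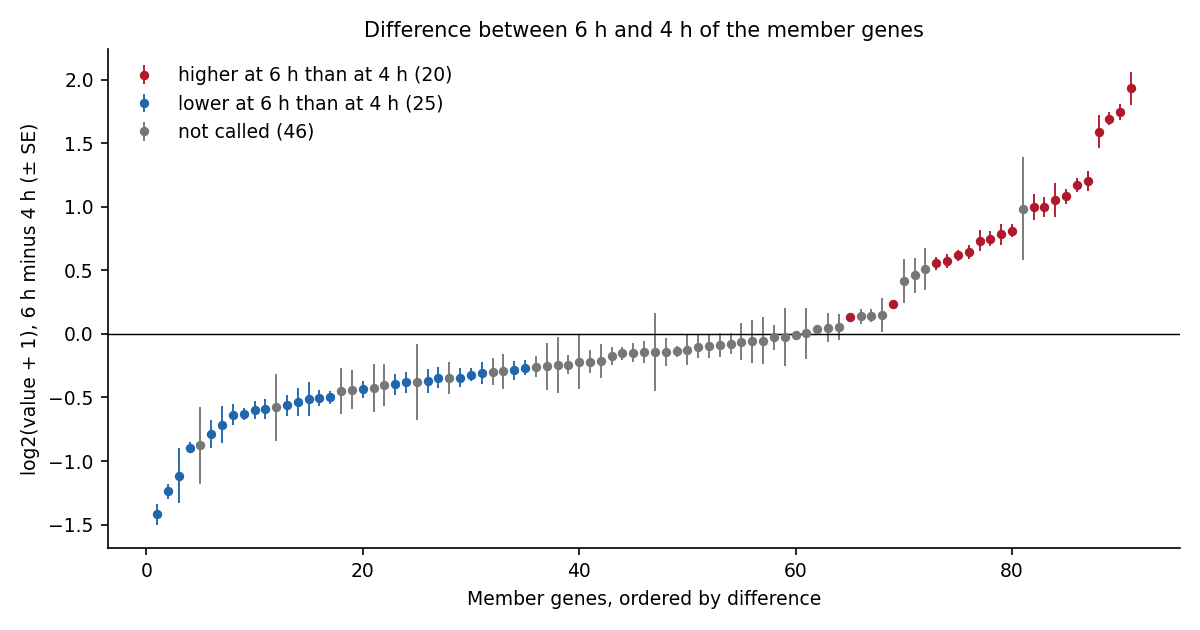
Log2(value + 1) at 6 h minus 4 h (y axis, estimate ± SE from limma) of the 91 members in order of the difference (x axis); red points were called higher at 6 h, blue points lower, and grey points did not pass the test. Differences ran from -1.42 to 1.93, and grey points with wide bars lie among the coloured ones.

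The 20 members that rose between 4 and 6 h were highest at 6 h without exception. Their log2 differences between 6 h and 4 h had a median of 0.90 and a range of 0.13 to 1.93, and 8 of them reached at least 1. Those 8 are 8.79% of the 91 members, where 0.414% of all tested genes were called higher by that much. That comparison was not matched for level, and the members had higher values at 4 h than most tested genes. In mean value the median member of this group was 1.89-fold higher at 6 h than at 4 h. Between 4 h and 2 h their log2 differences had a median of 0.11 and a range of -0.48 to 0.90, positive in 13 and negative in 7. All 20 ended above their level at 2 h.

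The largest of these differences belonged to a gene at 255.89, 226.09 and 216.19 at 6 h, against 58.86, 58.83 and 62.75 at 4 h, a 3.87-fold difference in mean value (log2 difference 1.93 ± 0.13 SE, limma adjusted p = 5.74e-06). At 2 h it had been at 44.56, 55.69 and 51.00, and at 0 h at 6.78, 6.26 and 9.50. Its libraries at 4 h lay just above those at 2 h, and its libraries at 6 h lay far above all others.

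The second largest difference was that of a gene at 111.00, 113.27 and 112.75 at 6 h, against 32.90, 33.71 and 32.10 at 4 h (log2 difference 1.74 ± 0.06 SE, limma adjusted p = 7.36e-08). Its values at 2 h, 30.98, 30.01 and 30.36, were almost those at 4 h, and it was at 3.09, 2.92 and 3.74 at 0 h. Its libraries at each harvest lay within a few units of each other, with no overlap between 6 h and any other harvest.

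The third gene in this order stood at 68.49, 73.58 and 70.15 at 6 h, against 22.30, 20.85 and 20.42 at 4 h (log2 difference 1.69 ± 0.05 SE, limma adjusted p = 3.46e-08), and the fourth at 123.08, 125.46 and 134.37 at 6 h, against 41.60, 40.45 and 43.09 at 4 h (log2 difference 1.59 ± 0.13 SE, limma adjusted p = 2.34e-05). In the third gene all 3 libraries at 4 h lay below those at 2 h, which were 25.05, 23.41 and 23.34. In the fourth, the libraries at 2 h, 40.86, 46.71 and 49.32, overlapped those at 4 h. These 4 genes were called higher in each alternative run.

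**Figure D4:**
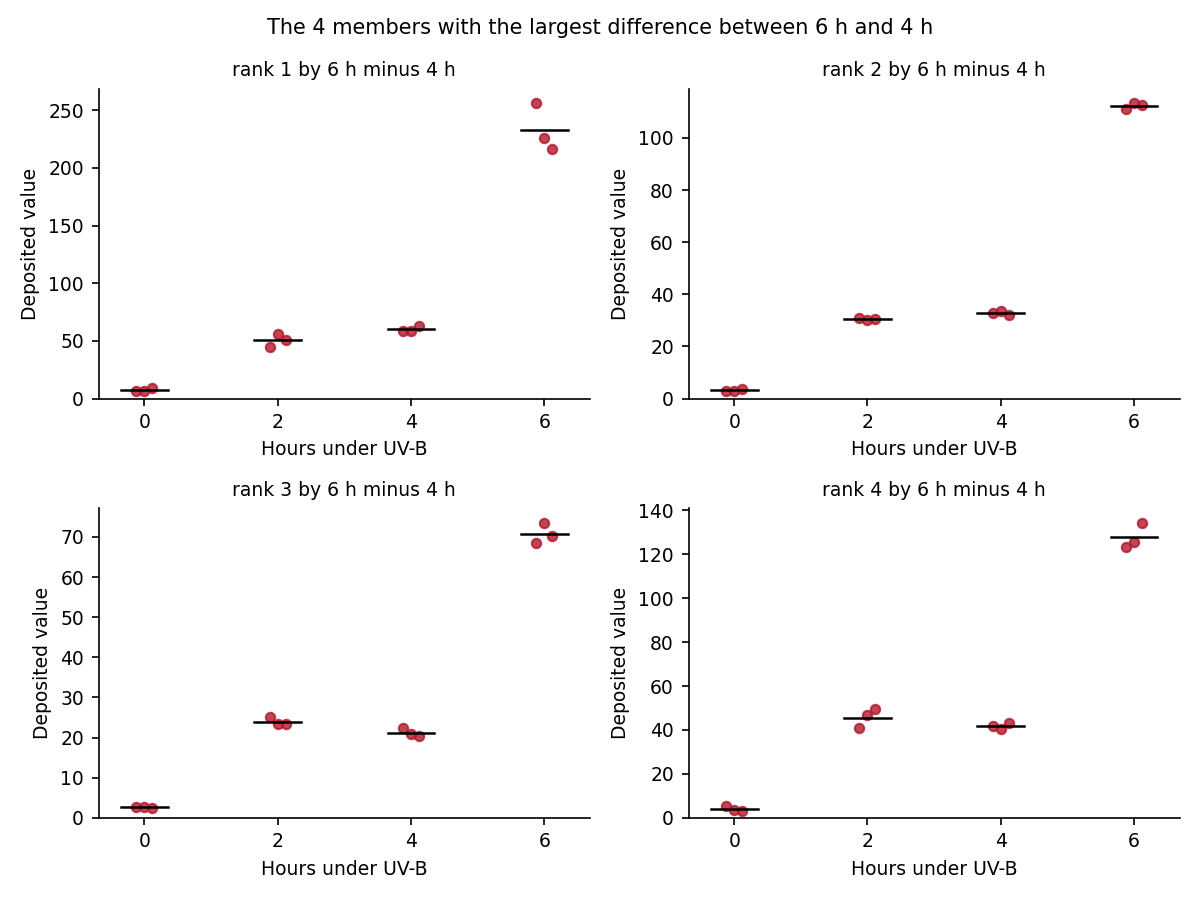
Deposited value (y axis, from 0) in each library for the 4 members with the largest difference between 6 h and 4 h, against hours under UV-B (x axis); points are libraries and lines are means of 3. Means at 6 h and 4 h were 232.7 and 60.1 for the first, 112.3 and 32.9 for the second, 70.7 and 21.2 for the third, and 127.6 and 41.7 for the fourth.

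The smallest called rise was that of the second member by mean value, 1.09-fold between 6 h and 4 h in mean value (log2 difference 0.13 ± 0.03 SE, limma adjusted p = 0.0282). It lost the call after median-ratio scaling, in limma without trend or robust estimation, and without any one of the libraries at 4 or 6 h. Over the alternatives run its limma adjusted p ranged from 0.0015 to 0.158.

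The 25 members that fell between 4 and 6 h had their highest mean at 4 h in 21 cases and at 2 h in 4. Their log2 differences between 6 h and 4 h had a median of -0.52 and a range of -1.42 to -0.27, and 3 of them reached -1 or less. Those 3 are 3.30% of the 91 members, where 0.197% of all tested genes were called lower by that much, again without matching for level. In mean value the median member of this group was 1.43-fold lower at 6 h than at 4 h. At 6 h, 16 of the 25 were below their level at 2 h and 9 were above it, with a median log2 difference between 6 h and 2 h of -0.13. Their median rise over 0 h at 6 h was still 3.29 on the log2 scale.

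The member with the largest fall, CTI12_AA616740, stood at 14.57, 17.01 and 15.51 at 6 h, against 43.78, 43.05 and 43.94 at 4 h, 2.78-fold lower in mean value (log2 difference -1.42 ± 0.08 SE, limma adjusted p = 2.05e-06). It had been at 20.19, 22.80 and 22.97 at 2 h and at 1.35, 1.81 and 1.82 at 0 h. Its libraries at 6 h also lay below those at 2 h. The rise between 2 and 4 h that the rule allowed was nearly at its limit in this gene, with a log2 difference of 0.96.

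The second largest fall was that of CTI12_AA123470, at 33.73, 37.77 and 35.73 at 6 h, against 83.86, 87.49 and 85.51 at 4 h (log2 difference -1.24 ± 0.06 SE, limma adjusted p = 3.11e-07). At 2 h it stood at 57.95, 59.97 and 61.68, and at 0 h at 2.33, 2.68 and 2.72. As in CTI12_AA616740, the libraries at 6 h did not overlap those at 2 h and were the lower ones. All libraries of CTI12_AA123470 at 6 h were still more than 10-fold above its mean at 0 h. In mean value CTI12_AA616740 was 9.46-fold above 0 h at 6 h. Another member reached a log2 difference of -1.12 ± 0.22 (SE, limma adjusted p = 0.0095), with 58.88, 69.75 and 79.42 at 6 h and 133.08, 158.96 and 160.59 at 4 h.

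**Figure D5:**
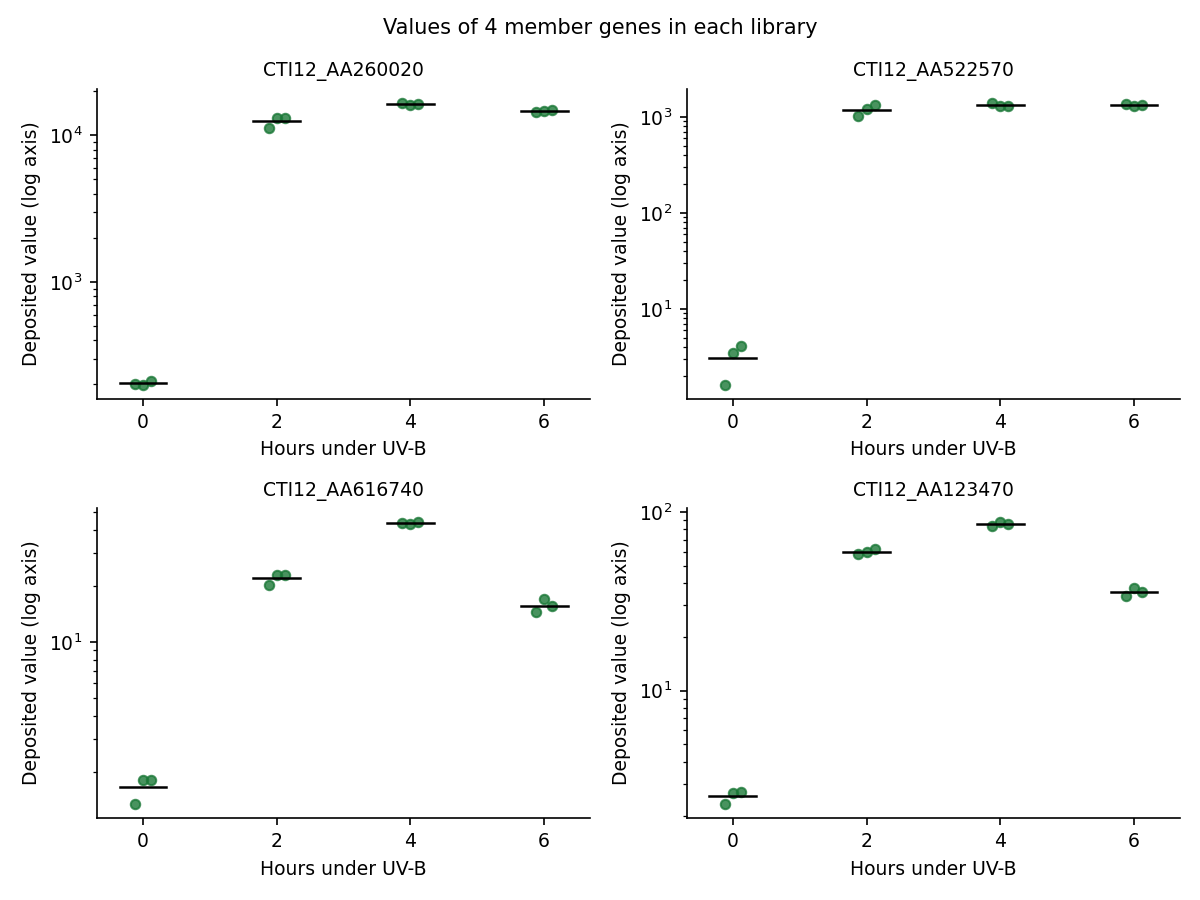
Deposited value (y axis, log scale) in each library of CTI12_AA260020, CTI12_AA522570, CTI12_AA616740 and CTI12_AA123470 against hours under UV-B (x axis); points are libraries and lines are means of 3. The upper pair stays near its level of 2 h, with means at 6 h of 14665 and 1339, while the lower pair stands at 15.7 and 35.7 at 6 h, against 43.6 and 85.6 at 4 h.

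Of the 46 members without a call, 27 had libraries at 6 h and 4 h that did not overlap, 7 higher and 20 lower, or 15.2% and 43.5%. The same held for 9.21% and 12.2% of all tested genes without a call, which were not matched for level. The fit shares the spread of all 4 harvests, taken on log2(value + 1). In deposited values, without the log, the members varied most at 0 h. The coefficient of variation of the 3 libraries had a median of 15.0% in UV0, 6.82% in UV2, 3.80% in UV4 and 4.31% in UV6. Among tested genes within the members' quartiles of mean value, these medians were 11.6%, 5.80%, 3.52% and 3.96%. A coefficient above 20% was found in 37 members in UV0, 7 in UV2, 3 in UV4 and 5 in UV6. Whether the spread at 0 h accounts for the missing calls was not tested. One member, ranked 11 by its difference, stood at 117.09, 118.09 and 116.52 at 6 h, against 58.18, 54.74 and 63.88 at 4 h. Its libraries at 0 h were 0.98, 7.24 and 1.71. Its log2 difference of 0.98 ± 0.41 (SE) did not pass (limma adjusted p = 0.175), while without replicate 2 of the 0 h harvest it did (limma adjusted p = 3.04e-04), and over the alternatives run the limma adjusted p ranged from 1.27e-04 to 0.325.

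In other members without a call the libraries of the exposed harvests themselves were spread. The member ranked 87 by its difference stood at 141.92, 80.98 and 164.49 at 6 h, against 278.32, 227.84 and 186.83 at 4 h, a log2 difference of -0.88 ± 0.30 (SE) that did not pass (limma adjusted p = 0.104). Its libraries did not overlap, but those at 6 h had a coefficient of variation of 33.5%, the widest of all members at that harvest.

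Genes that met every rise minimum but missed the limit on start, or that on the course between 2 and 4 h, are set beside the members. Genes that missed only a rise minimum, such as those that fell back by 6 h, are not among them. With the same starting level and rises, 20 genes had a log2 difference of at least 1 between 4 h and 2 h, and 5 had one of at most -1. A further 63 met the conditions on rise and course but had L under 1 at 0 h. Of the 116 genes with the required start and rises, 91 were thus near level between 2 and 4 h. Between 6 h and 4 h, 1 of the 20 that had gone up further was called higher and 4 lower. Of the 5 that had come down, 2 were called higher and 0 lower. Of the 63 with a low start, 11 were called higher and 15 lower. Over all tested genes, 4.44% were called higher and 5.47% lower, without matching for level. The groups of 5 and 20 genes are small, and no group was tested against these shares. The median log2 difference between 6 h and 4 h was -0.14 in the 91 members, -0.23 in the 20 genes, -0.02 in the 5 genes and -0.09 in the 63 genes. Whether these groups differ from the members was not tested. Their levels at 6 h had a median of 73.3 in the members, 110.5 in the 20 genes, 47.5 in the 5 genes and 15.6 in the 63 genes.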

How the data were processed

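Leaf RNA of 12 libraries was analysed from one table of normalised expression signal deposited by the authors, with 1 column per library, rounded to 2 decimals and with no unit named in its header. Tools listed in the submitters' processing notes are HISAT2 2.1.0, Salmon and DESeq, with no role for each; no genome build is stated in the labels. Columns of no sample numbered 0. The members and lists were chosen with earlier results of these data known.

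Values were taken as log2(value + 1), which understates changes of low genes. Genes at 1 or more in at least 3 libraries (25841) were fitted in limma 3.58.1 (R 4.3.3; trend, robust) with 4 groups and no replicate term, adjusted by Benjamini-Hochberg over all of them, and the fit was tested on simulated data. Identifiers are printed for the members with the highest mean and the largest mean rise, and for the 2 with the largest called fall between 4 and 6 h; other members were picked by rank after their values were seen. Name-based gene lists could not be used, since no names were given. Alternatives were pseudocounts of 0.1 and 5, median-ratio scaling, no filter, plain limma, a fit of 4 and 6 h alone, a replicate block and leaving out each library. The labels call the 3 libraries of a harvest biological repeats, and each is a pool of 3 seedlings. The p-values set a difference against the spread between such pools within harvests. Limma shares that spread over the 4 harvests and adjusts it by that of other genes.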

Additional observations from a re-analysis of the deposited data

Results flagged for a closer look

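Expression differed between 6 h and 4 h, by the test of the difference itself, in 20 members that were higher at 6 h and 25 that were lower (limma adjusted p under 0.05). These are 22.0% and 27.5% of the members, against 4.44% and 5.47% of all tested genes. The values at 4 h and 6 h entered the rule that chose the members, so these calls are not independent of it. Among tested genes within the members' quartiles of level at 4 h the shares were 7.87% and 16.5%. That range leaves out the members with the highest and lowest levels. Among the genes named by identifier, CTI12_AA616740 differed by -1.42 and CTI12_AA123470 by -1.24 on the log2(value + 1) scale between 6 h and 4 h.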

How the results depend on the processing

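With a pseudocount of 5 and the limits kept, the rule found 49 genes in place of 91, 43 of them among the 91. A larger pseudocount shrinks rises from low values, and with 5 the starting limit leaves no gene out. A pseudocount of 0.1 found 84 genes (71 shared), where the same starting limit asks for a higher value at 0 h. Median-ratio scaling found 79 (72 shared). Leaving out 1 library at a time gave 88 to 97. Between 6 h and 4 h, a fit of these harvests alone called 38 members lower in place of 25 (and 24 higher). Without single libraries, 19 to 24 members were called higher and 19 to 29 lower, and the median log2 difference of the members lay between -0.17 and -0.13. Of the 45 calls, 19 higher and 17 lower held in the reported fit and every alternative to it, and none was reversed. Libraries with the same replicate number did not deviate together (r from -0.02 to 0.04 over 18 pairs, across genes). These correlations cannot settle whether the numbers pair libraries by handling. The replicate block called 21 members higher and 23 lower. Read depth is unknown, which leaves the precision of the low values at 0 h to the 3 libraries alone.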

Other observations

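In the order of identifier numbers, 0 pairs of members were at most 10 identifiers apart, and the closest pair was 11 apart. The number of such pairs to be met in any list of this length was not worked out, so nothing follows from that count. Of the 182 identifiers directly before or after a member, 70 were tested genes outside the set, and 6 of these (8.57%) were at least 1 log2 unit above 0 h at each exposed harvest, as were 5.29% of all tested genes. Where these identifiers lie in the genome is not given by the table.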
